A study of Mus musculus with 4 samples.

Results

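The Bcl2 family of apoptosis regulators was followed in mouse TBV2 embryonic stem (ES) cells through 10 genes chosen by name: Bcl2, Bcl2l1, Mcl1, Bax, Bak1, Bid, Bad, Bbc3, Bcl2l11 and Pmaip1. All 10 were found in the deposited table of 27542 genes and transcribed loci, each in 1 row that carried no other symbol. The knockdown group (KD) was 3 TBV2 clones in which T-UCstem1, a long noncoding RNA with an ultraconserved element (also labelled uc.170), was lowered. The control group (NT) was 1 library of TBV2 cells labelled N.T., and both groups grew in serum with LIF, on feeder cells at high density, with no other treatment. The values are FPKM, fragments scaled to transcript length and to the number of mapped fragments, which can be compared between genes. The authors combined the 3 clones into 1 KD value per gene and the control is 1 library, so values stand without SD or n, and neither the spread between clones nor that between control cultures can be shown. The level of T-UCstem1 itself was not analysed here.

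Bcl2-family proteins decide at the outer mitochondrial membrane whether a cell enters the mitochondrial pathway of apoptosis. Guardians (Bcl2, Bcl-xL from Bcl2l1, and Mcl1) hold the effectors Bax and Bak in check, BH3-only proteins bind guardians or effectors in response to stress, and freed effectors form pores that let cytochrome c out to activate caspases. Most of this control acts on proteins through binding, cleavage, phosphorylation and turnover, which transcript levels do not show.

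The cells carried their defining transcripts in both conditions. None of 12 ES cell markers was marked as changed, and the 11 of them with a row of their own summed to 3742 FPKM in KD cells and 3623 FPKM in NT cells. Markers of other cells differed, beside 0.963% of all tested rows marked as higher in KD cells. Of 13 tested markers of primitive, parietal and visceral endoderm 11 were marked as higher in KD cells. The 15 markers summed to 474 FPKM in KD cells and 63.1 FPKM in NT cells. Lama1, Lamb1, Col4a1 and Col4a2 had the highest KD levels, from 63.0 to 109 FPKM. Afp and Ttr were not tested, at 0.0522 and 0.532 FPKM in KD cells and listed at 0 in NT cells. Of 10 tested feeder fibroblast markers 4 were marked as higher: Tnc, Bgn, Fbln2 and Pdgfra. The 15 markers summed to 71.7 FPKM in KD cells and 19.4 FPKM in NT cells, with Lum listed at 0 in both and Fap in NT cells. Tnc, Fbln2 and Bgn were the highest, at 16.3, 14.3 and 13.3 FPKM in KD cells. Of the 9 with at least 1 FPKM, 8 lay above 0, and Pdgfrb did not, at 2.57 FPKM in KD cells and 2.73 FPKM in NT cells. Col3a1, Dcn, Lum, Postn, Fap and Prrx1 were below 1 FPKM in both. Pdgfra stands in both of these lists. The 5 blood and macrophage markers with a row of their own summed to 0.161 FPKM in KD cells and 0.0894 FPKM in NT cells. The part of these other cells in the Bcl2-family levels was not tested, and in bulk RNA fewer cells of a type and less RNA per cell cannot be told apart.

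The family was expressed in a steep order of levels that was nearly the same in both conditions. Bax and Mcl1 stood far above the other members, Bid, Bak1, Bcl2l1, Bbc3, Pmaip1, Bad and Bcl2l11 lay in a middle range, and Bcl2 was below 1 FPKM. In KD cells the 8 other members between Bax and Bcl2 lay between 6.26 FPKM (Bcl2l11) and 170 FPKM (Mcl1), and in NT cells between 6.21 FPKM (Bcl2l11) and 212 FPKM (Mcl1). Bid stood just above Bak1 in KD cells and below it in NT cells, and all other members kept their rank. Without replicate values, none of the neighbours in this order can be said to differ beyond a measured spread.

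**Figure D1:**
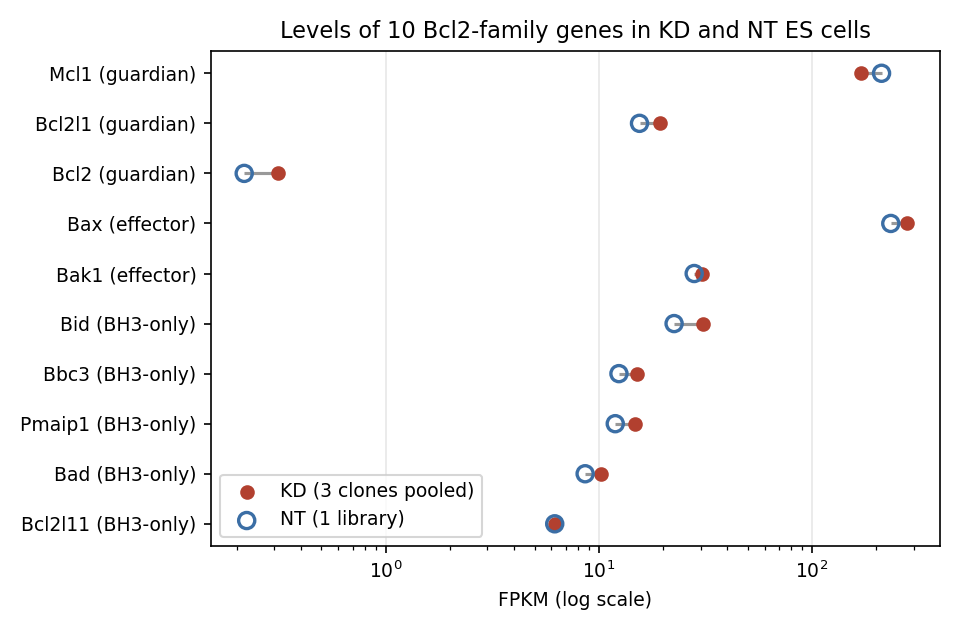
FPKM (log scale) of the 10 Bcl2-family genes, grouped by role, in KD cells (filled points, 3 clones pooled by the authors) and NT cells (open circles, 1 library). Mcl1 is the member whose KD point lies to the left of its NT point, and Bcl2 lies below 1 FPKM in both.

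No member differed between KD and NT cells by the authors' test. Of the 9 members tested in the authors' deposited table (Cuffdiff) 0 were marked, where 1.15% of all 15477 tested rows were, and Bcl2 was not tested. None of the 9 had an unadjusted p at or below 0.05 in the authors' deposited table, which 8.88% of tested rows did, and the lowest p was that of Bid, at 0.119. The mark had gone to 0.963% of tested rows as higher and to 0.187% as lower in KD cells. Fold changes are log2 ratios of KD over NT with 1 FPKM added to both, which understates the change of low genes. None of the 10 members reached 1.5-fold (0.58 on the log2 scale) in either direction, while 12.8% of the 13462 rows with at least 1 FPKM in either condition did, 7.72% upward and 5.07% downward in KD cells. The smallest absolute log2 fold among the 178 rows that the authors marked was 0.71. Differences of the size seen in these 10 members thus lay below any that received the mark.

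Small differences of the same sign were spread over most of the 10 members, but not over the rest of the family. The log2 fold was above 0 in 9 of 10 members, against 51.4% of all rows with at least 1 FPKM. Only Mcl1 was below 0. The 9 include Bcl2l11, at 0.0090, and Bcl2, which was below 1 FPKM and which the authors did not test. Of the 9 tested members, all with at least 1 FPKM, 8 lay above 0. Of 10 other Bcl2-family genes with at least 1 FPKM, 8 lay below 0 and 2 above, with a median of -0.17. Over all 15 other genes, with no minimum, the median was -0.051. The member count was 8 of 10 with folds centred on the median of all rows, because Bcl2l11 then lay below 0. The median over the 10 members was 0.23, and over the 9 members with at least 1 FPKM 0.25, beside a median of 0.010 and quartiles of -0.19 and 0.22 over all such rows. The members' folds ran from -0.32 (Mcl1) to 0.44 (Bid).

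**Figure D2:**
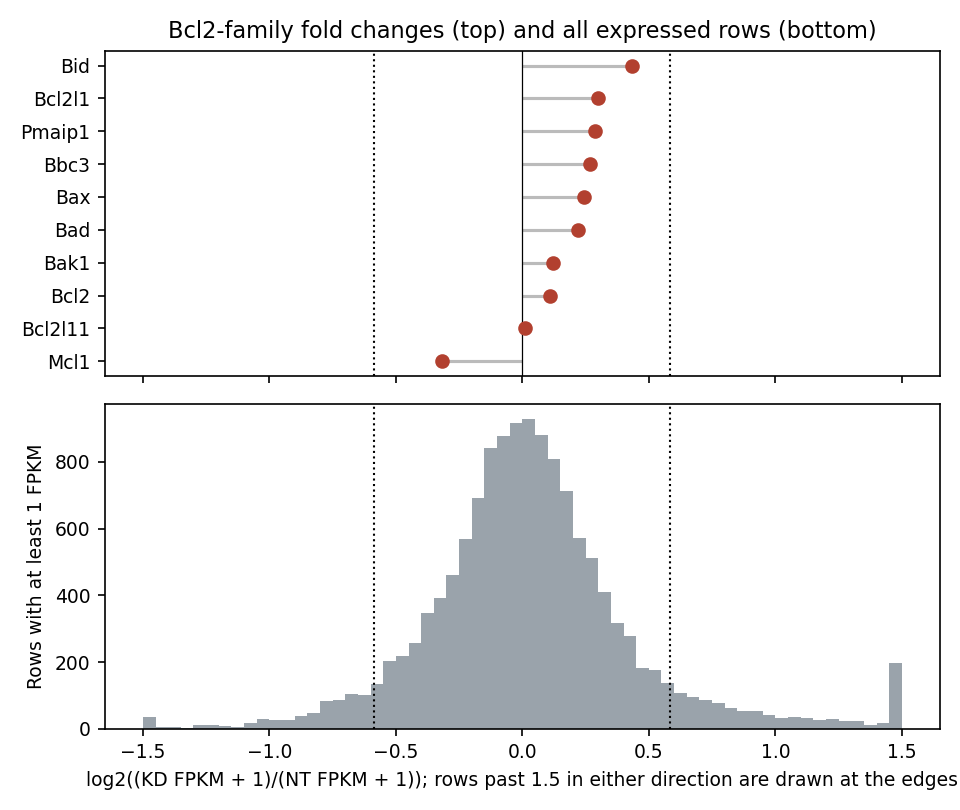
Top, log2 fold of each Bcl2-family gene (KD over NT, 1 FPKM added to each); bottom, the same quantity for all 13462 rows with at least 1 FPKM in either condition. Dotted lines mark 1.5-fold in each direction; all 10 members lie between them, with Bid at 0.44 and Mcl1 at -0.32.

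Among the guardians, Mcl1 carried nearly all of the transcript. Mcl1 is a short-lived guardian that mouse embryos need around implantation. It was at 170 FPKM in KD cells and 212 FPKM in NT cells, 0.802 of the NT level, with a log2 fold of -0.32 and a p of 0.156 (q of 0.871) in the authors' deposited table. An absolute fold at least this large was found in 32.6% of all rows with at least 1 FPKM. The Mcl1 row (mm9, chromosome 3, 95457257 to 95469718) spanned 12.5 kb, whereas the RefSeq gene spans 6.24 kb, so the row may hold transcripts beyond the annotated gene. A locus without a symbol that overlaps it was listed at 0.136 FPKM in KD cells and 0.526 FPKM in NT cells.

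Bcl2l1, whose main product Bcl-xL restrains both Bax and Bak, was the second guardian among the members by level. It was at 19.4 FPKM in KD cells and 15.5 FPKM in NT cells, with a log2 fold of 0.30 and a p of 0.316 in the authors' deposited table (chromosome 2, 152579909 to 152657464). The ratio of Mcl1 to Bcl2l1 was 8.78 in KD cells and 13.6 in NT cells. The Bcl2l1 locus overlaps Cox4i2, a respiratory chain subunit gene that was low in both conditions, at 1.504 FPKM in KD cells and 1.63 FPKM in NT cells. The table does not separate Bcl-xL from Bcl-xS, a shorter splice form with the opposite activity.

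Bcl2, the founding member and a guardian best known from lymphocytes, was the least abundant member. It was at 0.314 FPKM in KD cells and 0.217 FPKM in NT cells, and the authors did not test it. Its log2 fold was 0.11 with 1 FPKM added and 0.38 with 0.1 FPKM added, both within the 1.5-fold lines. If 0.033 FPKM on 1 kb is the worth of 1 fragment in the NT library, the NT value would be about 13.2 fragments on a 2 kb transcript. The 2 kb is an assumed length, and the length of the Bcl2 transcript was not used. Mcl1 exceeded Bcl2 by 541-fold in KD cells and by 975-fold in NT cells. The locus spans 176 kb of chromosome 1 (108434755 to 108610867), and the microRNA gene Mir3473f inside it was listed at 0 in both conditions.

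The effectors were dominated by Bax. Bax, which moves from the cytosol to mitochondria and forms pores there, was the most abundant member, at 278 FPKM in KD cells and 234 FPKM in NT cells. It was 18.6% higher in KD cells, with a log2 fold of 0.25 and a p of 0.282 in the authors' deposited table (chromosome 7, 52717065 to 52722268). No other row of the table overlaps it. Its neighbour Ftl1, a ferritin light chain gene 1808 bp away, was at 3571 FPKM in KD cells and 4213 FPKM in NT cells. The log2 fold of Ftl1 was -0.24, opposite in sign to Bax. Tulp2, 4028 bp away on the other side, was at 2.00 FPKM in KD cells and 1.61 FPKM in NT cells. The log2 fold of Tulp2 was 0.20, of the same sign as Bax.

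Bak1, whose product already sits in the mitochondrial membrane where Mcl1 and Bcl-xL hold it, was at 30.6 FPKM in KD cells and 28.0 FPKM in NT cells. Its log2 fold was 0.12, with a p of 0.703 in the authors' deposited table. Bax exceeded Bak1 by 9.09-fold in KD cells and 8.36-fold in NT cells. The Bak1 row (chromosome 17, 27154980 to 27173323) spans 18.3 kb against 8.82 kb for the RefSeq gene and overlaps Ggnbp1, a gene that was at 8.50 FPKM in KD cells and 10.9 FPKM in NT cells. A use of strand in counting is not given in the sources used here, so reads of Bak1 and Ggnbp1 may have been shared.

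The sequences upstream of Mcl1 and Bax are shown because these abundant members lay on opposite sides of 0. Each is the 250 bases before the RefSeq start site (GRCm38.p6), read on the gene's strand, for Mcl1 chr3:95658471-95658720 on the plus strand and for Bax chr7:45466899-45467148 on the minus strand. Capitals mark matches on either strand to the GC box GGGCGG, the CCAAT box CCAAT, the TATA box TATAAA, the E-box CACGTG and the repeat unit of the p53 response element.
Mcl1: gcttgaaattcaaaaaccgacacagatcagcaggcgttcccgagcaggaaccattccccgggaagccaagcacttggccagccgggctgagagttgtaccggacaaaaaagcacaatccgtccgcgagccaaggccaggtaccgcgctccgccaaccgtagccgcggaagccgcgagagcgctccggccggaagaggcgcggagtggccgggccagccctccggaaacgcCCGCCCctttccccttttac
Bax: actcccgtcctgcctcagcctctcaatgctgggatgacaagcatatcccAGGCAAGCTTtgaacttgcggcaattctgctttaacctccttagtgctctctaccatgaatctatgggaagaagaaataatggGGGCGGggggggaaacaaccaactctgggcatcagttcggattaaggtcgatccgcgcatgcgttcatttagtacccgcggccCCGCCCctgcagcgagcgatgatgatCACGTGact
The Mcl1 window was 64.4% G and C with 26 CpG sites and held 1 GC box. The Bax window was 54% G and C with 14 CpG sites and held 2 GC boxes, 1 E-box and 1 p53 repeat unit. Over all 32536 distinct promoter windows of this length the medians were 52.4% and 6 CpG sites. A GC box was in 33.0% of them, a CCAAT box in 33.8%, a TATA box in 12.3%, an E-box in 6.04% and the p53 repeat unit in 7.12%. The RefSeq table held 15 windows for 9 members, some with several start sites, and none for Pmaip1. Of these 9 members 7 had a GC box, 3 a CCAAT box, 2 an E-box and 0 a TATA box in any of their windows. Bax alone of the 9 matched the p53 repeat unit. The percentages are per single window, so these member counts are not directly comparable with them. Such matches describe letters in these windows and do not show binding.

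The 5 BH3-only genes among the members were all at or above their NT level in KD cells, by small amounts. The BH3-only genes Bmf, Hrk and Bik, which are not members, lay below it, with log2 folds of -0.33, -0.21 and -0.051. Bid, which caspase 8 cleaves to link death receptors to mitochondria, had the largest fold of the 10 members. It was at 30.8 FPKM in KD cells and 22.5 FPKM in NT cells, 36.8% higher, with a log2 fold of 0.44 and a p of 0.119 (q of 0.795) in the authors' deposited table. An absolute fold at least this large was found in 21.0% of all rows with at least 1 FPKM.

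Bid lies on chromosome 6 (120843137 to 120866870), where genes in general were higher in KD cells. The 603 rows of that chromosome with at least 1 FPKM had a median log2 fold of 0.26, the highest of the chromosomes with at least 20 such rows, with quartiles of 0.047 and 0.47, and 78.6% of them were above 0. Bid lay 0.18 above that median. Its neighbour 276 bp away, the family member Bcl2l13, was at 10.7 FPKM in KD cells and 10.6 FPKM in NT cells. The log2 fold of Bcl2l13 was 0.0046. Mical3, 14693 bp away on the other side of Bid, was at 12.6 FPKM in KD cells and 10.9 FPKM in NT cells. The log2 fold of Mical3 was 0.19. The part of the chromosome in the level of Bid was not tested. The medians of the chromosomes of the other members lay between -0.020 (chromosome 17) and 0.059 (chromosome 2).

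Bbc3 and Pmaip1 encode PUMA and NOXA, BH3-only proteins induced by p53. PUMA binds all guardians, while NOXA binds mainly Mcl1. Bbc3 was at 15.2 FPKM in KD cells and 12.4 FPKM in NT cells, with a log2 fold of 0.27 and a p of 0.43 in the authors' deposited table (chromosome 7, 16893820 to 16903683). Pmaip1 was at 14.8 FPKM in KD cells and 11.9 FPKM in NT cells, with a log2 fold of 0.29 and a p of 0.342 in the authors' deposited table. Both values were higher in KD cells by similar amounts, as was that of Bax, another p53 target. The log2 folds of Bcl2l1 and Bad, at 0.30 and 0.22, were of like size. Trp53 itself was at 203 FPKM in KD cells and 177 FPKM in NT cells, with a log2 fold of 0.20, and was not marked. The part of p53 in these levels was not tested. The ratio of Mcl1 to Pmaip1 was 11.5 in KD cells and 17.7 in NT cells.

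Bad and Bcl2l11 showed the smallest differences of the 5 BH3-only members. Bad, whose binding to Bcl2 and Bcl-xL is blocked by phosphorylation through survival kinases, was at 10.2 FPKM in KD cells and 8.63 FPKM in NT cells, with a log2 fold of 0.22 and a p of 0.675 in the authors' deposited table. Its row (chromosome 19, 7012552 to 7026395) overlaps Gpr137, at 6.88 FPKM in KD cells and 7.40 FPKM in NT cells, so reads of these genes may have been shared. Bcl2l11, which encodes BIM, a target of FOXO3 that binds all guardians, was at 6.26 FPKM in KD cells and 6.21 FPKM in NT cells (chromosome 2, 127951774 to 127988283). Its log2 fold of 0.0090 was the one closest to 0 among the 10 members. Of all rows with at least 1 FPKM, 97.6% had a larger absolute fold.

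Summed by role, the guardians were at 190 FPKM in KD cells and 228 FPKM in NT cells. The effectors summed to 308 FPKM in KD cells and 262 FPKM in NT cells, and the BH3-only genes to 77.3 FPKM in KD cells and 61.8 FPKM in NT cells. The total over the 10 genes was 575 FPKM in KD cells and 552 FPKM in NT cells. As shares of that total, the guardians made up 33.0% in KD cells and 41.3% in NT cells, the effectors 53.6% in KD cells and 47.5% in NT cells, and the BH3-only genes 13.4% in KD cells and 11.2% in NT cells. Both Mcl1 and Bax enter these shares, with KD minus NT differences of -42.0 FPKM for Mcl1 and 43.6 FPKM for Bax. Without Mcl1, which holds most of the guardian sum, the effectors made up 76.1% in KD cells and 77.2% in NT cells. The ratio of Bax to Mcl1 transcript was 1.64 in KD cells and 1.11 in NT cells, while that of Bax to Bcl2l1 was 14.4 in KD cells and 15.1 in NT cells. No error can be given for these sums and ratios, and they are not a measure of free protein.

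**Figure D3:**
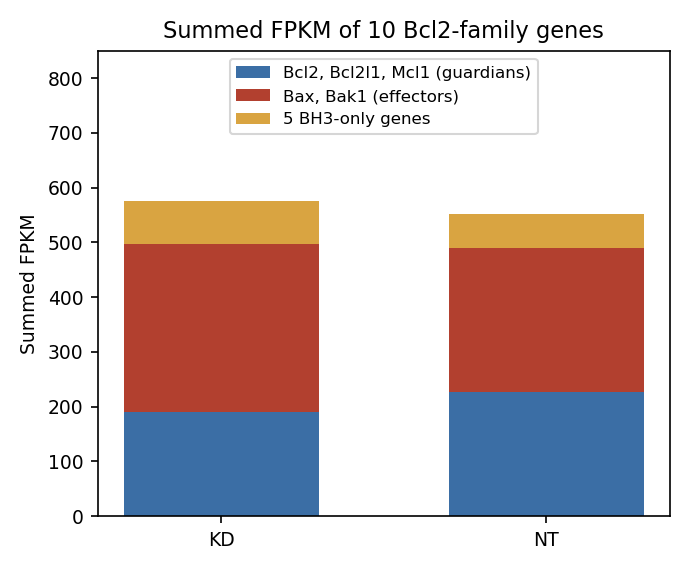
Summed FPKM of the 10 Bcl2-family genes in KD cells (left, 3 clones pooled) and NT cells (right, 1 library), stacked by role from guardians at the bottom to BH3-only genes at the top. The guardian block is 190 FPKM in KD cells and 228 FPKM in NT cells, and the effector block is 308 FPKM in KD cells and 262 FPKM in NT cells.

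Genes around these 10 were examined in 7 lists with 86 genes in all, of which 71 were tested. The authors marked 1 as higher in KD cells, 1 as lower and left 69 unmarked. Of all 15477 tested rows 0.963% were marked as higher and 0.187% as lower. The median log2 fold over the genes of these lists with at least 1 FPKM was 0.0051.

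**Figure D4:**
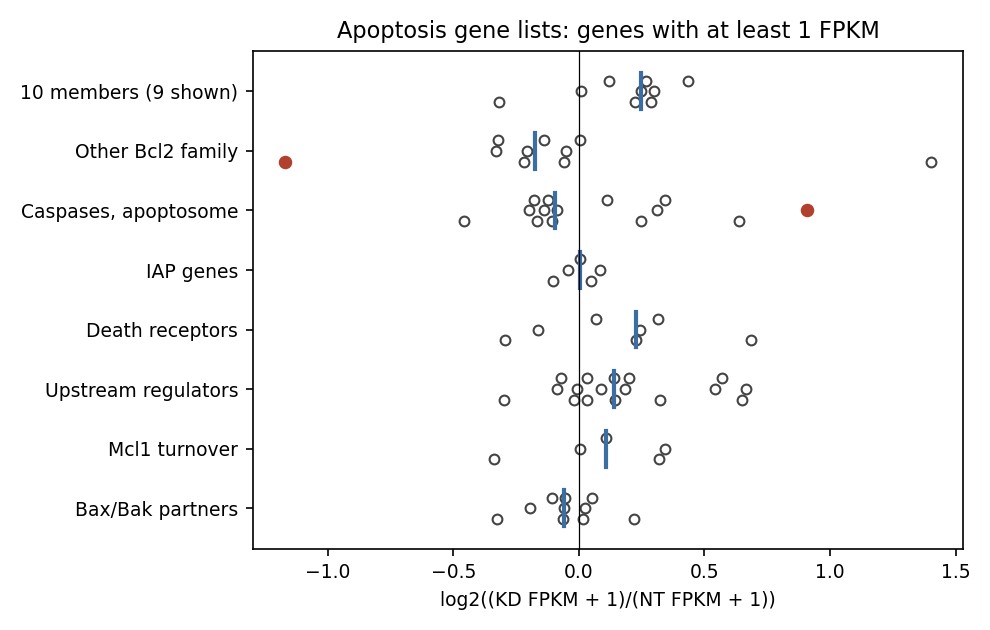
Log2 fold (KD over NT, 1 FPKM added to each) of genes with at least 1 FPKM in either condition, for the Bcl2-family members and 7 related lists. Filled points were marked by the authors (Bnip3 at -1.17 and Cycs at 0.91), open points were not, and vertical bars are list medians.

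Other genes of the Bcl2 family lay mostly a little below their NT level. Of 15, 11 were tested, 1 was marked as lower, none was marked as higher and 10 were not marked. Among all tested rows 0.187% were marked as lower. Of the 10 with at least 1 FPKM, 8 lay below 0 and 2 above, with a median log2 fold of -0.17, while all 15 had one of -0.051. Bnip3, a hypoxia-induced mitophagy receptor with a BH3-like stretch, was the one marked. It was at 27.1 FPKM in KD cells and 62.3 FPKM in NT cells, with a log2 fold of -1.17. In the authors' deposited table its q was 0.044. Its relative Bnip3l was at 40.8 FPKM in KD cells and 51.3 FPKM in NT cells and was not marked. Bmf, a BH3-only gene, was at 9.20 FPKM in KD cells and 11.8 FPKM in NT cells, with a log2 fold of -0.33. Bcl2l2 was at 6.96 FPKM in KD cells and 8.27 FPKM in NT cells, with a log2 fold of -0.22, and was not marked. The log2 fold of Bcl2l15 was 1.40, at 2.01 FPKM in KD cells and 0.139 FPKM in NT cells, and in the authors' deposited table it had a q of 0.157 and no mark. The hematopoietic guardian paralogs Bcl2a1b and Bcl2a1d were listed at 0 in both conditions and Bcl2a1a at 0.0270 FPKM in KD cells and 0 in NT cells. These paralogs are nearly identical, so their split is uncertain.

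Downstream of the pores, cytochrome c was the one gene of the apoptosome and caspase list that the authors marked. All 14 were tested, of which 1 was marked as higher, none as lower and 13 were not marked, with a median log2 fold of -0.097. Among all tested rows 0.963% were marked as higher. Of the 14, Cycs and Endog lay past 1.5-fold, where 12.8% of all rows with at least 1 FPKM did. Cycs, cytochrome c, rose to 59.1 FPKM in KD cells, against 31.1 FPKM in NT cells, with a log2 fold of 0.91 and, in the authors' deposited table, a q of 0.0204. Cycs, like Bid, lies on chromosome 6, whose rows had a median log2 fold of 0.26 and an upper quartile of 0.47. The part of the chromosome in the level of Cycs was not tested. Casp9, the initiator caspase of the apoptosome, was at 6.74 FPKM in KD cells and 9.63 FPKM in NT cells, with a log2 fold of -0.46. Endog, a mitochondrial nuclease, was at 2.77 FPKM in KD cells and 1.42 FPKM in NT cells, with a log2 fold of 0.64. Parp1, a caspase substrate, was at 137 FPKM in KD cells and 115 FPKM in NT cells. Casp9, Endog and Parp1 were not marked.

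The inhibitor of apoptosis genes, which restrain caspases, were almost level. Of 10, 6 were tested and none was marked, and the 5 with at least 1 FPKM had a median log2 fold of 0.0054. Birc5, survivin, which also serves in mitosis, was at 168 FPKM in KD cells and 159 FPKM in NT cells. Birc2 was at 21.5 FPKM in KD cells and 23.1 FPKM in NT cells, and Birc3 at 1.92 FPKM in KD cells and 1.83 FPKM in NT cells.

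Genes of the death receptor pathway, which reaches the family through Bid, were low. Of 11, 8 were tested and none was marked, and the 7 with at least 1 FPKM had a median log2 fold of 0.23, while all 11 had one of 0.069. Tnfrsf10b, a TRAIL receptor, was at 16.2 FPKM in KD cells and 12.8 FPKM in NT cells, and Tnfrsf1a, a TNF receptor on chromosome 6, at 4.71 FPKM in KD cells and 2.55 FPKM in NT cells. The log2 fold of Tnfrsf1a was 0.68, the only 1 of the 7 past 1.5-fold, where 12.8% of all rows with at least 1 FPKM were. The part of the chromosome in the level of Tnfrsf1a was not tested. Cflar, which blocks caspase 8, was at 6.24 FPKM in KD cells and 7.89 FPKM in NT cells.

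Regulators of the family gave no marked gene among 17 tested of 18, with a median log2 fold of 0.14 over the 17 with at least 1 FPKM. Akt1, a survival kinase that phosphorylates Bad, was at 13.9 FPKM in KD cells and 8.42 FPKM in NT cells, with a log2 fold of 0.67 and, in the authors' deposited table, a q of 0.517. Ppp3ca, the calcineurin subunit that removes phosphate from Bad, was at 13.7 FPKM in KD cells and 8.38 FPKM in NT cells, with a log2 fold of 0.65 and, in the authors' deposited table, a q of 0.45. With 1 FPKM added, both lay past 1.5-fold, the only 2 of the 17 genes with at least 1 FPKM to do so. Among all such rows 12.8% did. Myc was at 9.27 FPKM in KD cells and 5.92 FPKM in NT cells, and the stress factor Atf4 at 316 FPKM in KD cells and 331 FPKM in NT cells.

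Genes for turnover of the Mcl1 protein were not marked in any of 5 tested cases, with a median log2 fold of 0.11. The ubiquitin ligase Huwe1 was at 72.1 FPKM in KD cells and 66.8 FPKM in NT cells, and Fbxw7, the substrate receptor of another ligase, at 11.9 FPKM in KD cells and 9.18 FPKM in NT cells. Btrc, a further receptor of this kind, was at 7.07 FPKM in KD cells and 9.19 FPKM in NT cells. Cdk9, a kinase that short-lived transcripts such as Mcl1 depend on, was at 17.8 FPKM in KD cells and 14.1 FPKM in NT cells. Among 10 mitochondrial partners of Bax and Bak none was marked, with a median log2 fold of -0.059. The outer membrane channel Vdac1 was at 216 FPKM in KD cells and 272 FPKM in NT cells, and Vdac2, which binds Bak, at 162 FPKM in KD cells and 139 FPKM in NT cells. Mff, a receptor for mitochondrial fission, was at 63.8 FPKM in KD cells and 73.2 FPKM in NT cells.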

How the data were processed

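TRIzol RNA of TBV2 cells was sequenced as Illumina libraries, per the labels' protocols. The submitters' processing notes name TopHat, Cufflinks, Cuffdiff and the mouse build mm9, with neither versions nor the annotation, strand use or scaling. Per the file headers, the authors deposited a single FPKM per gene for "treated" and for "control" cells. The control column was read as the NT library and the treated column as the 3 KD clones combined, KD being the other condition in the labels. The p-value and q-value are the authors' Cuffdiff output, per the file headers, and with 1 control library they hold no spread between control cultures. The largest q of a marked row was 0.0478.

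For each gene the row with the highest mean FPKM that the authors had tested or listed as not tested was kept. Fold changes used a pseudocount of 1 FPKM in Python 3.11.15 with pandas 2.3.3, and locus starts were raised by 1 to count from 1. With a single value per condition, the FPKM were not tested further. Fold counting was tested on simulated data. Members and lists were chosen with earlier results of these data known. From each list, marked genes, the 3 largest folds and the 2 highest levels among genes with at least 1 FPKM were named. Bcl2l13, Bcl2l2, Hrk, Bik, Ftl1, Tulp2, Mical3, Cox4i2, Ggnbp1, Gpr137, Mir3473f, the Bcl2a1 genes and single cell type markers were named after their values were seen. Promoter windows came from the RefSeq table for GRCm38.p6, which matched 9 of 10 members. The read depth per library is not stated. The most frequent low value of NT FPKM times transcript length, over genes with 1 annotated transcript of at least 1.5 kb, was 0.033, which covers counting error only. Alternative pseudocounts, centring, fold lines and row handling were tried.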

Additional observations from a re-analysis of the deposited data

How the results depend on the processing

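No member passed 1.5-fold, or 2-fold, under a pseudocount of 0.1 or 5 FPKM, under centring on all rows or on the member's own chromosome, or with FPKM summed over rows, and 0 members had a deposited q at or below 0.2. The member median ranged from 0.19 (pseudocount of 5 FPKM) to 0.27 (pseudocount of 0.1 FPKM), and centring on each member's chromosome gave 0.20 with 8 of 10 members above 0. After that centring Bid stood at 0.18 and the highest member was Bbc3, at 0.28. Mcl1 stayed between -0.33 and -0.31 under the 5 settings. Leaving Mcl1 out changed the shares by role, to 4.85% in KD cells and 4.63% in NT cells for the guardians, 76.1% in KD cells and 77.2% in NT cells for the effectors, and 19.1% in KD cells and 18.2% in NT cells for the BH3-only genes. The medians of the 7 apoptosis-related lists and of the members' chromosomes lay between the 1.5-fold lines under all settings tried for them. The median log2 fold of the feeder fibroblast markers was 1.27, but 0.46 without a minimum FPKM and 1.87 with a pseudocount of 0.1 FPKM, and that of the endoderm markers was 2.29, 2.25 and 2.94 in the same order of settings. No paired analysis was possible because the table holds 1 pooled KD value and 1 NT value per gene. For the same reason no clone could be left out. Among the members depth limits Bcl2 most, since it was the lowest, at 0.217 FPKM in NT cells. On a 2 kb transcript 3 fragments would be about 0.0495 FPKM in the NT library, below that value.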

Other observations

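Usp9x, the deubiquitinase that stabilises the Mcl1 protein, was listed at 106 FPKM in KD cells and 0 in NT cells in a row that the authors' deposited table gives as failed, so the 0 is not a measured level and no fold was computed. The chromosomes with the highest and lowest median log2 fold were 6, at 0.26 over 603 rows, and 10, at -0.19 over 655 rows. Apaf1, the scaffold of the apoptosome, lies on chromosome 10 and was at 13.3 FPKM in KD cells and 15.4 FPKM in NT cells, with a log2 fold of -0.20 close to that median. Htra2, a mitochondrial protease released with cytochrome c, lies on chromosome 6 and was at 20.04 FPKM in KD cells and 15.6 FPKM in NT cells. The log2 fold of Htra2 was 0.34. The part of the chromosomes in the levels of Apaf1 and Htra2 was not tested. Fas, a death receptor gene, was at 0.721 FPKM in KD cells and 0.174 FPKM in NT cells, with a p of 0.0539 in the authors' deposited table. These genes were chosen after their values were seen.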
